A study of Homo sapiens with 12 samples.

Results

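Sprouty and Spred proteins, the immediate-early gene product IER3, PHLDA1 and the ETS factors ETV4 and ETV5 are known as outputs of the RAS-ERK pathway, and 10 such genes were followed here: SPRY1, SPRY2, SPRY4, SPRED1, SPRED2, SPRED3, IER3, PHLDA1, ETV4 and ETV5. They were chosen by name, with earlier results of these data known, and each matched 1 of the 28395 identifiers in the count table. The series holds 12 RNA-seq libraries, 4 groups of 3, from BEAS-2B, an established and virally immortalised line of bronchial epithelium. All cells were kept for 24 h in medium free of serum and steroid. The groups were no treatment (control), TGF-β1 at 40 pM for 24 h, dexamethasone at 30 nM for 4 h, and TGF-β1 for 24 h followed by dexamethasone for a further 4 h (both). The 3 replicates of each group are described as biological. The vehicle is not given in the sources used here, and the growth protocol names A549 cells where every other field names BEAS-2B. The series title concerns how TGF-β1 makes epithelial cells insensitive to glucocorticoid, and the comparisons here give the effect of each agent on the 10 genes without and with the other.

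As background, growth factor receptors pass their signal through adaptors to RAS, and RAS activates the kinases RAF, MEK and ERK in turn. ERK then induces genes that restrain the same route: Sprouty proteins act near the receptor and RAS, and Spred proteins bring the RAS inactivator neurofibromin to the membrane and restrain RAF. ETV4 and ETV5, of the PEA3 group of ETS factors, carry the signal to further genes and are held back by the repressor capicua. In airway epithelium this feedback limits the response to growth factors in branching and repair. Glucocorticoids are known to induce some inhibitors of the pathway and to repress inflammatory genes downstream of it.

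Levels are CPM, the usual depth-scaled read count, here on library sizes adjusted by TMM (a normalisation that aligns the bulk of the genes between libraries), and are given for replicates 1, 2 and 3 in that order. Effects are differences in log2 CPM from the fitted model (SE is the standard error), and a gene is said to have risen or fallen where edgeR's quasi-likelihood test gave an adjusted p under 0.05 over the 13469 genes tested. All 10 genes passed the filter on low counts. Total counts were 5861591 to 7008203 in replicates 1 and 2 and 17968961 to 19727235 in replicate 3 of every group. Deviations from the group means correlated between libraries of the same number (r from 0.25 to 0.541 over genes), so for the 10 genes the value with the replicate number as a block is given wherever it changed a call. The treatments left their usual marks: FKBP5, a glucocorticoid-induced co-chaperone, was 90.6 to 180 CPM in the 6 libraries without dexamethasone and 1326 to 2505 CPM in the 6 with it, and SMAD7, an inhibitor of TGF-β signalling that TGF-β1 induces, was 4.64 to 16.1 CPM without TGF-β1 and 56.4 to 132 CPM with it. All 6 epithelial markers examined were detected in every group (KRT8 at 470 to 921 CPM, KRT5 at 387 to 1370 CPM, EPCAM at only 4.7 to 10.9 CPM). Of 6 genes abundant in A549 cells, CPS1 was at 13.8 to 27.1 CPM and AKR1B10 at 0 to 8.95 CPM. AKR1C1, ALDH1A1, GPX2 and SCGB1A1 were at most 1.30, 0.618, 0.696 and 0.152 CPM. The identity of the line was not tested. The defining fibroblast markers DCN and LUM and the leukocyte marker PTPRC were at or near 0 (at most 0.309, 0.309 and 0.174 CPM). The summed level of the 5 fibroblast markers, nearly all of it THY1 and COL6A3, was 217 to 344 CPM in control, 388 to 573 with TGF-β1, 236 to 396 with dexamethasone and 598 to 892 with both, and its part in the results was not tested. In bulk RNA, fewer cells that express a gene and less RNA per cell cannot be told apart.

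**Figure D1:**
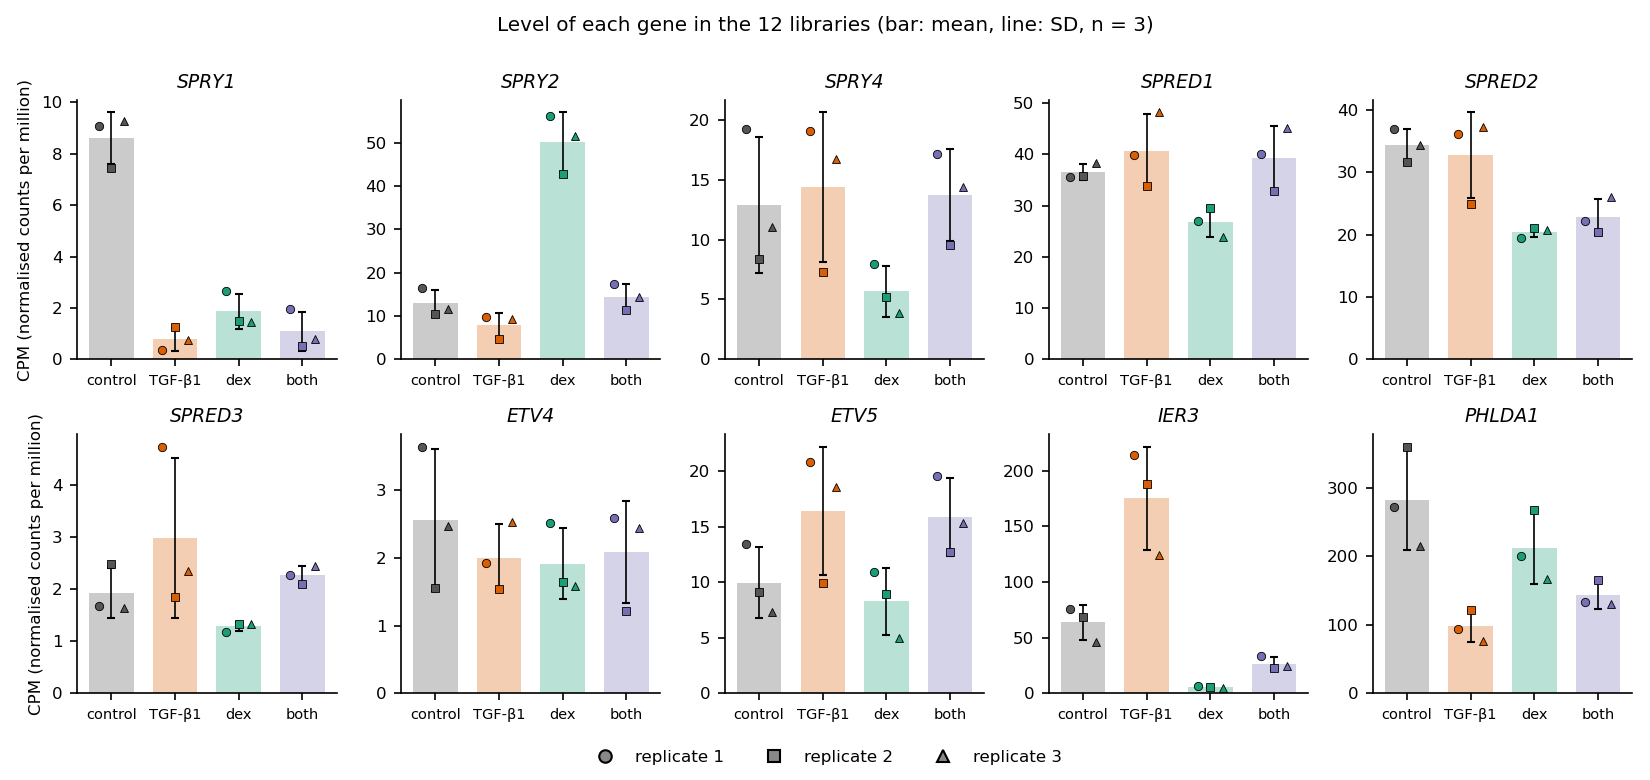
Level of each of the 10 genes in the 12 libraries, in CPM on linear axes from 0; bars are group means, lines are the SD (n = 3) and symbols mark the replicate number. SPRY1 is high in control only, SPRY2 is highest with dexamethasone alone (42.7 to 56.2 CPM), and IER3 is highest with TGF-β1 alone (124 to 214 CPM).

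SPRY1 and SPRY2 are paralogues whose response to dexamethasone had opposite signs (values below), so the 250 bases before their annotated starts are shown first, from RefSeq on GRCh38.p14, each on its gene's own strand. SPRY1 lies on the plus strand of chromosome 4 (123396795 to 123403760) and SPRY2 on the minus strand of chromosome 13 (80335976 to 80341126), and both are protein-coding. Capitals mark the ETS core CCGGAA or the hexamer AGAACA, which is 1 arm of the glucocorticoid response element and reads TGTTCT on the other strand. The second RefSeq start of SPRY1 is not shown because the bases before it lie in an exon of another SPRY1 transcript.
SPRY1, first start, chr4:123396545-123396794: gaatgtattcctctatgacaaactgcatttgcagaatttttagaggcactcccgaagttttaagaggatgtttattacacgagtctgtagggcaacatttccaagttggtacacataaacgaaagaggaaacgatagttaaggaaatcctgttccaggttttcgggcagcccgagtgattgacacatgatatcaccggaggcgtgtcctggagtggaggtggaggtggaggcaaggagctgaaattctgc
SPRY2, upstream start, chr13:80341127-80341376: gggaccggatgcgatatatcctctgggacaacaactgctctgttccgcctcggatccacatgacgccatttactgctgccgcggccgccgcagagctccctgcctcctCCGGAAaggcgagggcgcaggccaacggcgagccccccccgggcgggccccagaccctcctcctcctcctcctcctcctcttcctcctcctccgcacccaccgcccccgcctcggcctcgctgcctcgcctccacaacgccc
SPRY2, middle start, chr13:80340109-80340358: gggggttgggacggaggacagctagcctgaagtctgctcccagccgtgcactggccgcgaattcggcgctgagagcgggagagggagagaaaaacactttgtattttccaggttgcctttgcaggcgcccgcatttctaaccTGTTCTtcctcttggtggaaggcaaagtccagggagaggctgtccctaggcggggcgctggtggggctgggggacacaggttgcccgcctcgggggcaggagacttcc
SPRY2, downstream start, chr13:80339660-80339909: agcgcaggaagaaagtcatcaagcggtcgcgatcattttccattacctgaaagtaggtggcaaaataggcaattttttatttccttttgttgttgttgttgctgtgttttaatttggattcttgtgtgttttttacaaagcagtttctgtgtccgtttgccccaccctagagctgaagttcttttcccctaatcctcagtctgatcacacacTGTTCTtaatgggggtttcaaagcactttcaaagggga
The hexamer stood 108 bases before the middle start and 38 bases before the downstream start of SPRY2, and no SPRY1 window held it. The ETS core stood 142 bases before the upstream start of SPRY2 and 67 bases before the second start of SPRY1. RefSeq windows of 300 bases (250 before and 50 after a start) were found for 7 of the 10 genes, 12 windows in all, and searched on both strands. Of all 35116 windows in the table, 14.79% held the hexamer and 17.25% the ETS core, so these matches are common. The ETS core also occurred once in PHLDA1, 89 bases before its start, and the AP-1 motif TGANTCA (7.71% of windows) at 2 places in 1 SPRED2 window and once in a SPRED3 window. All 250 bases before that PHLDA1 start lie in GENCODE exons of PHLDA1. Of the 250 bases before that SPRED3 start, 126 lie in exons of SPRED3. The TATAAA box (11.53%) occurred in the same SPRED2 window. None of the 12 windows held the whole glucocorticoid response element, which contains the hexamer on each strand and occurred in 1 of the 35116 windows, the cyclic AMP element TGACGTCA (1.85%), the SMAD palindrome GTCTAGAC (0.2%), the SMAD-bound CAGACA (16.88%), the NF-κB site (0.19%), the CArG box (1.29%) or CCGGAAGT (4.14%), which contains the ETS core.

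SPRY1, which inhibits receptor signalling upstream of RAS, was high in untreated cells and low under every treatment. Control libraries had 9.10, 7.45 and 9.27 CPM, TGF-β1 libraries 0.350, 1.24 and 0.729 CPM, dexamethasone libraries 2.66, 1.49 and 1.44 CPM, and libraries with both 1.94, 0.522 and 0.791 CPM. All 9 treated libraries lay below the 3 controls. It fell against control with TGF-β1 (-3.47, SE 0.38, adjusted p = 1.01e-05), with dexamethasone (-2.29, SE 0.33, adjusted p = 0.000281) and with both (-3.08, SE 0.37, adjusted p = 1.9e-05). The libraries with both overlapped those of each agent alone, and those of TGF-β1 lay below those of dexamethasone. With TGF-β1 present, dexamethasone gave 0.40 (SE 0.50, adjusted p = 0.826), and with dexamethasone present, TGF-β1 gave -0.79 (SE 0.43, adjusted p = 0.189), which became -1.31 (adjusted p = 0.0454) without replicate 1 of both. These low levels rest on 23 reads over the TGF-β1 group, 58 over dexamethasone and 28 over both, against 300 over control, and the dexamethasone ratio between same-numbered libraries with TGF-β1 ran from -1.24 to 2.47 on the log2 scale.

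SPRY2, the most studied Sprouty, was the 1 member that dexamethasone raised, and TGF-β1 lowered it in cells given dexamethasone. Its level was 16.5, 10.6 and 11.5 CPM in control, 9.81, 4.64 and 9.25 with TGF-β1, 56.2, 42.7 and 51.6 with dexamethasone, and 17.3, 11.5 and 14.4 with both. Dexamethasone alone stood clear of every other group, and both overlapped control. Dexamethasone raised it by 1.98 (SE 0.22, adjusted p = 3.16e-05) without TGF-β1, a 3.95-fold difference. With TGF-β1 present the dexamethasone difference was 0.84 (SE 0.25, adjusted p = 0.0557, and 0.000201 with the replicate block or 0.0462 without replicate 2 of both), and the 2 groups did not overlap. SPRY2 fell with TGF-β1 when dexamethasone was present (-1.80, SE 0.22, adjusted p = 3.67e-05). Without dexamethasone the difference was -0.65 (SE 0.25, adjusted p = 0.0583, and 0.00124 with the block or 0.0487 without replicate 2 of control). This difference also passed with DESeq2 (adjusted p = 0.0245) and library size alone (0.0083). The difference of 0.84 passed with DESeq2 (0.00895) and without replicate 2 of every group (0.0419). Each stayed uncalled in 5 of 6 fits with 1 library left out (adjusted p up to 0.193 and 0.191). Both against control gave 0.18 (SE 0.23, adjusted p = 0.583), and -0.080 with scaling by library size alone.

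SPRY4, which acts on RAS activation like its relatives, had its lowest mean with dexamethasone alone. It lies on chromosome 5 (142310430 to 142325021, minus strand). Control libraries had 19.3, 8.38 and 11.01 CPM, TGF-β1 libraries 19.1, 7.27 and 16.7, dexamethasone libraries 7.98, 5.21 and 3.83, and libraries with both 17.2, 9.57 and 14.4. The dexamethasone libraries lay below every control library, the closest pair being 7.98 and 8.38 CPM. Dexamethasone against control gave -1.25 (SE 0.42, adjusted p = 0.0954, and 0.000541 with the block). This difference also passed with DESeq2 (adjusted p = 0.015) and without replicate 2 of every group (0.0161). It stayed uncalled in all 6 fits with 1 library left out (adjusted p from 0.0705 to 0.337) and without replicate 1 or 3 of every group (up to 0.495). The other scalings, no filter and only those groups in the fit left it uncalled too (up to 0.278). With TGF-β1 present the dexamethasone difference was -0.07 (SE 0.38, adjusted p = 0.972), and TGF-β1 raised SPRY4 by 1.36 (SE 0.42, adjusted p = 0.0285) in cells given dexamethasone. That call was lost without replicate 2 or 3 of dexamethasone or replicate 1 or 3 of both (adjusted p from 0.0694 to 0.144), without replicate 3 of every group (0.313) and without the low-count filter (0.0978).

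SPRED1, SPRED2 and SPRED3 bind neurofibromin, and mutations that inactivate SPRED1 cause Legius syndrome. They lie on chromosomes 15 (38252836 to 38357249), 2 (65307175 to 65432599) and 19 (38388697 to 38399587). SPRED2 fell with dexamethasone in both backgrounds, SPRED1 had its lowest levels with dexamethasone alone, and SPRED3 had at most 4.73 CPM.

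SPRED2 had 37.0, 31.7 and 34.3 CPM in control, 36.1, 24.9 and 37.4 with TGF-β1, 19.5, 21.1 and 20.8 with dexamethasone, and 22.2, 20.4 and 26.0 with both. The dexamethasone libraries were the most even of the 4 groups and lay below all libraries without the steroid. It fell with dexamethasone without TGF-β1 (-0.74, SE 0.14, adjusted p = 0.00316) and with it (-0.51, SE 0.15, adjusted p = 0.0441). The first call was lost with replicate 1 of every group left out (adjusted p = 0.133), as was the fall in both against control (-0.57, SE 0.14, adjusted p = 0.00687, and 0.134 without that replicate). The second was lost without replicate 1 or 3 of TGF-β1 or replicate 1 or 2 of both (adjusted p from 0.132 to 0.227), without replicate 1 or 3 of every group (0.508 and 0.242; 0.0842 with the block and no replicate 1), and with only those groups in the fit (0.131). TGF-β1 itself gave -0.06 (SE 0.14, adjusted p = 0.793) without dexamethasone and 0.17 (SE 0.15, adjusted p = 0.411) with it.

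SPRED1 had 35.5, 35.7 and 38.4 CPM in control, 40.0, 33.9 and 48.2 with TGF-β1, 26.9, 29.6 and 23.8 with dexamethasone, and 40.0, 32.9 and 45.1 with both. Dexamethasone libraries lay below all 9 others. The difference from control was -0.46 (SE 0.14, adjusted p = 0.056, and 0.00852 with the block or 0.0483 without replicate 2 of dexamethasone). It also passed with DESeq2 (adjusted p = 0.0357), library size alone (0.0218), no low-count filter (0.0361) and only those groups in the fit (0.0224). Without replicate 2 of every group it passed as well (0.0178). It stayed uncalled in 5 of 6 fits with 1 library left out (adjusted p up to 0.215) and without replicate 1 or 3 of every group (up to 0.362). TGF-β1 raised SPRED1 by 0.58 (SE 0.14, adjusted p = 0.00684) when dexamethasone was present, a call lost with replicate 1 or replicate 3 of every group left out (adjusted p = 0.106 and 0.109). TGF-β1 alone gave 0.16 (SE 0.14, adjusted p = 0.4), and -0.046 with scaling by library size alone.

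SPRED3 had 253 reads over the 12 libraries, and its level ran from 1.18 to 4.73 CPM. Dexamethasone libraries were at 1.18 to 1.34 CPM, below all others, and the highest value came from replicate 1 of TGF-β1. TGF-β1 with dexamethasone present gave 0.81 (SE 0.35, adjusted p = 0.0911, and 0.0487 with the block or 0.049 with only those groups in the fit), and no other comparison passed the test with or without the block.

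ETV5 and ETV4 are PEA3-group factors. ETV5 (chromosome 3, 186046314 to 186109089) had 13.5, 9.16 and 7.29 CPM in control, 20.9, 9.90 and 18.6 with TGF-β1, 10.9, 8.92 and 4.98 with dexamethasone, and 19.6, 12.7 and 15.3 with both. TGF-β1 gave 0.78 (SE 0.33, adjusted p = 0.0974, and 0.0168 with the block) alone (0.0241 without replicate 2 of TGF-β1), and raised ETV5 by 1.02 (SE 0.34, adjusted p = 0.0393) in the presence of dexamethasone. The groups overlapped in the first comparison and not in the second, and the second call was lost without replicate 2 or 3 of dexamethasone or replicate 1 or 3 of both (adjusted p from 0.0627 to 0.174), without replicate 1 or 3 of every group (0.0828 and 0.251; 0.071 with the block and no replicate 1), with scaling by library size alone (0.0601) and without the low-count filter (0.114). Both against control gave 0.72 (SE 0.34, adjusted p = 0.118, and 0.0289 with the block). Dexamethasone gave -0.30 (SE 0.35) and -0.06 (SE 0.32), neither past the test.

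ETV4 (chromosome 17, 43527846 to 43546340) stood at 1.22 to 3.64 CPM in all 12 libraries, on 275 reads. Its groups overlapped in all 5 comparisons, and no difference passed the test with or without the block. Among those 5 comparisons the effect furthest from 0 was dexamethasone against control at -0.46 (SE 0.35, adjusted p = 0.57). ETV4 shares 68 exonic bases with DHX8 on the opposite strand and ETV5 shares 164 with DGKG, 1.89% and 2.83% of their exons in GENCODE.

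IER3, also called IEX-1, is a short-lived product of stress and growth factor signalling that prolongs ERK activity and is also a classic NF-κB target. TGF-β1 raised it and dexamethasone lowered it, each without and with the other. Its level was 76.3, 68.8 and 46.5 CPM in control, 214, 188 and 124 with TGF-β1, 6.80, 5.65 and 4.83 with dexamethasone, and 33.2, 23.0 and 24.2 with both. No 2 of the 4 groups overlapped. TGF-β1 raised it by 1.47 (SE 0.23, adjusted p = 0.000439) and, with dexamethasone present, by 2.26 (SE 0.29, adjusted p = 0.000125). Dexamethasone lowered it without TGF-β1 (-3.50, SE 0.29, adjusted p = 6.41e-06) and with it (-2.71, SE 0.24, adjusted p = 1.92e-05). The first of these made it 11.3-fold lower and ranked 40 by size among the 13469 genes. With both agents it fell by 1.25 against control (SE 0.24, adjusted p = 0.00182). IER3 is a gene of 1 merged exon on chromosome 6 (30743199 to 30744547, minus strand), and 26.47% of its exonic bases are shared with the antisense gene IER3-AS1, so with counts not known to use strand the 2 transcripts cannot be told apart there.

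PHLDA1, a pleckstrin-homology protein also known as TDAG51, was lower with dexamethasone alone and higher with dexamethasone after TGF-β1, and with the replicate block both differences passed the test. It lies on chromosome 12 (76025447 to 76031776, minus strand). Its level was 272, 360.4 and 215 CPM in control, 94.6, 122 and 76.4 with TGF-β1, 201, 268 and 167 with dexamethasone, and 133, 166 and 131 with both. It fell with TGF-β1 (-1.54, SE 0.24, adjusted p = 0.000456) and with both (-0.98, SE 0.23, adjusted p = 0.00647; 0.12 with replicate 1 of every group left out). Replicate 2 was the highest and replicate 3 the lowest in all 4 groups. Between same-numbered libraries, the dexamethasone log2 ratio was -0.44, -0.43 and -0.37 without TGF-β1 and 0.49, 0.44 and 0.78 with it. Without the block these differences were -0.42 (SE 0.23, adjusted p = 0.372) and 0.56 (SE 0.23, adjusted p = 0.239, and 0.0152 with replicate 2 of every group left out). With the block they were -0.41 (SE 0.06, adjusted p = 3.21e-05) and 0.59 (SE 0.07, adjusted p = 1.18e-06). TGF-β1 with dexamethasone present gave -0.56 (SE 0.23, adjusted p = 0.087, and 7.48e-07 with the block); this difference also passed with DESeq2 (0.0394), with library size alone (0.0294), with only those groups in the fit (0.041) and without replicate 2 of every group (0.0231). Antisense genes in GENCODE cover 6.85% and 9.65% of PHLDA1 exons.

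**Figure D2:**
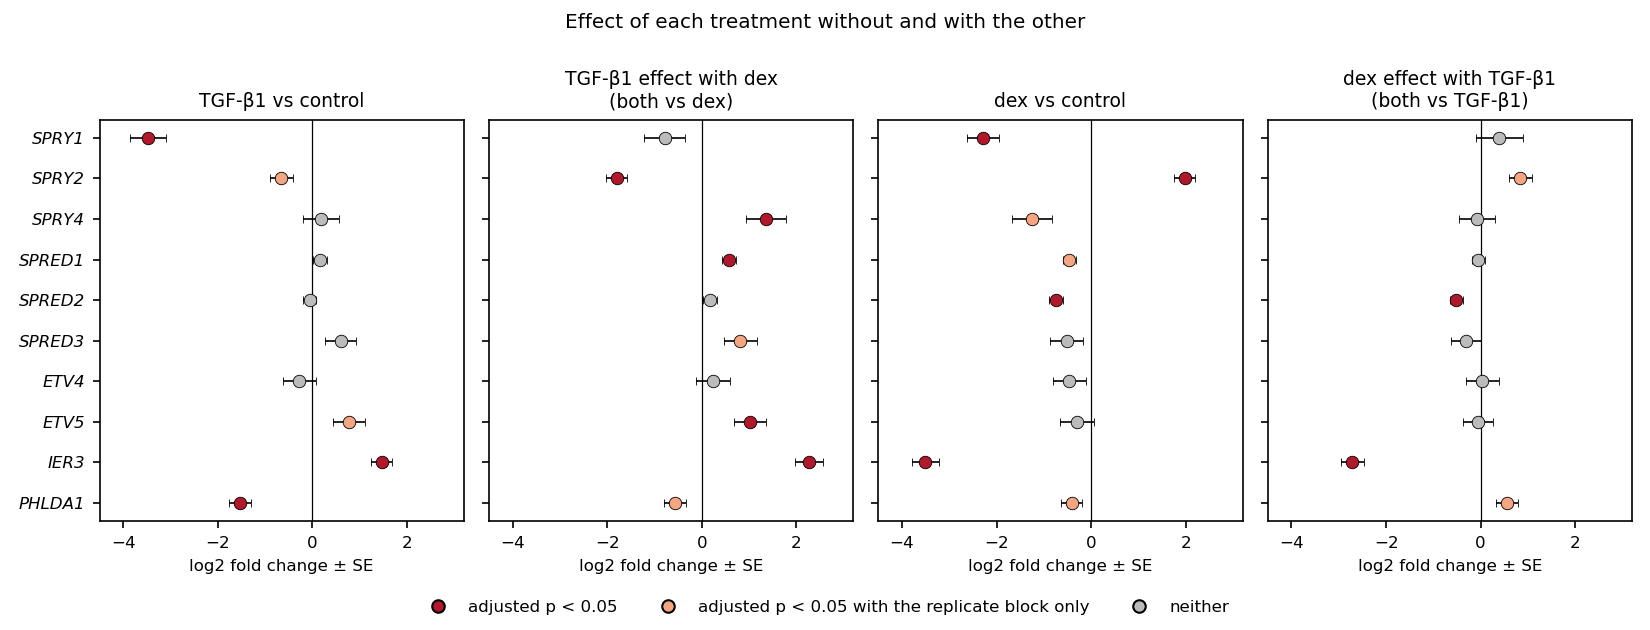
Log2 fold change of each gene (x axis, bars are the SE without the block) for TGF-β1 without and with dexamethasone and for dexamethasone without and with TGF-β1. Dark red points passed the edgeR test, light orange points passed it only with the replicate block, and grey points passed neither; IER3 is dark red in all 4 panels.

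Counted over the 10 genes, TGF-β1 against control raised 1 (IER3) and lowered 2 (SPRY1 and PHLDA1). Of all genes tested 32.8% were called, 16.2% higher and 16.6% lower, so the share of the 10 was near the background. With the block 2 rose and 3 fell, against 50% of all genes (24.6% higher and 25.5% lower). The libraries of the groups did not overlap for 4 of the 10, against 44.8% of all genes. Dexamethasone against control raised 1 (SPRY2) and lowered 3 (SPRY1, SPRED2 and IER3), where 10.4% of all genes were called, 5.54% higher and 4.9% lower. With the block 1 rose and 6 fell (PHLDA1, SPRY4 and SPRED1 added), against 22.2% (10.8% higher and 11.4% lower). The median effect of dexamethasone was -0.49 over the 10 genes and 0.0035 over all genes, and 7 of the 10 did not overlap, against 25.7% of all genes.

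In cells given TGF-β1, dexamethasone lowered 2 of the 10 (IER3 and SPRED2) and raised none, where 8.11% of all genes were called (5.09% higher and 3.01% lower), and the median over the 10 was -0.055. With the block SPRY2 and PHLDA1 rose as well, against 17.5% of all genes (9.47% higher and 8% lower), and 3 of the 10 did not overlap, against 20.9%. In cells given dexamethasone, TGF-β1 raised 4 (IER3, SPRY4, ETV5 and SPRED1) and lowered 1 (SPRY2), where 32.3% of all genes were called (15.9% higher and 16.4% lower). With the block 5 rose and 2 fell, against 49.9% (24% higher and 26% lower). The median over the 10 was 0.40 against -0.023 over all genes, and 7 of the 10 did not overlap, against 42.9%. Both against control lowered 4 (SPRY1, IER3, PHLDA1 and SPRED2) and raised none, where 36.6% of all genes were called (18.5% higher and 18.1% lower). With the block ETV5 rose as well, against 53.1% (26.5% higher and 26.7% lower), and 4 of the 10 did not overlap, against 47.1%. The comparisons that share a group share its libraries and are not separate evidence. The 10 genes were chosen with earlier results of these data known, so their shares against all genes are descriptions.

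Whether the dexamethasone effect differed between the backgrounds was tested as the interaction, the effect with TGF-β1 minus that without. With edgeR's test without the block 0 of the 10 passed, where 0.884% of all genes were called (0.483% higher and 0.401% lower). Of the 10, 3 had an unadjusted p under 0.05, SPRY1 (0.000625), SPRY2 (0.00425) and PHLDA1 (0.0127), and DESeq2 called 1, SPRY1. The shares of all genes for these counts were not computed, so the counts are descriptions. With the replicate block 4 rose and 1 fell, against 4.78% of all genes (3.01% higher and 1.77% lower): SPRY1 (2.69, SE 0.56, adjusted p = 0.00438), SPRY2 (-1.21, SE 0.18, adjusted p = 0.00018), SPRY4 (1.18, SE 0.29, adjusted p = 0.0297), IER3 (0.77, SE 0.16, adjusted p = 0.00775) and PHLDA1 (1.00, SE 0.09, adjusted p = 7.74e-07). In each of these the 3 same-numbered differences had 1 sign. The blocked fit rests on the same libraries, so the shared sign is not separate evidence, and its share over all genes was not computed. The differences of SPRY4 were 1.12, 1.08 and 1.30, those of IER3 0.80, 0.57 and 0.91, and those of SPRY2 -0.94, -0.71 and -1.52. SPRY1 differed by 4.25, 1.08 and 2.81, a range that rests on few reads. Replicates 1, 2 and 3 had 2, 8 and 13 SPRY1 reads with TGF-β1 and 12, 3 and 13 with both. SPRED1, SPRED2 and ETV5 also had 3 differences above 0 (means 0.41, 0.24 and 0.30), without passing either test.

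**Figure D3:**
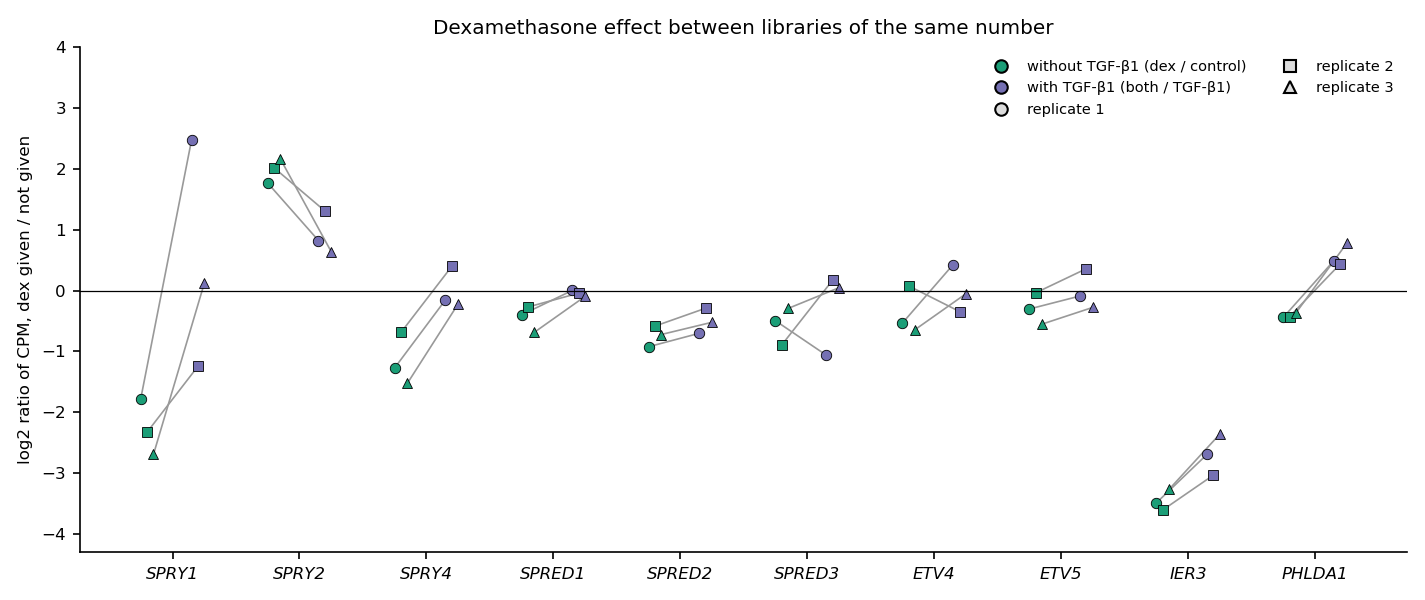
Log2 ratio of CPM (y axis) between the library given dexamethasone and the library of the same number not given it, without TGF-β1 (green) and with it (purple); grey lines join libraries of the same number and symbols mark the number. PHLDA1 ratios lie below 0 without TGF-β1 (-0.44 to -0.37) and above 0 with it (0.44 to 0.78), and the 3 SPRY2 lines all run downward.

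The rest of the pathway was read from 7 lists of 50 other genes, which were also chosen with earlier results of these data known. Their counts stand against 32.8% of all genes called with TGF-β1 (16.2% higher and 16.6% lower) and 10.4% with dexamethasone (5.54% higher and 4.9% lower). With dexamethasone, of 8 genes of the RAF-MEK-ERK list 2 rose, 6 were not past the test, and the median was 0.04; MAP2K1, which encodes a MEK, rose (0.43, SE 0.12). With TGF-β1 1 gene of the same list rose, 1 fell and 6 were not past the test. KSR1, the scaffold that holds RAF, MEK and ERK together, rose from 18.3 ± 2.94 to 45.1 ± 4.34 CPM (SD, n = 3; 1.31, SE 0.14, adjusted p = 1.01e-05). KSR1 was 14.7 ± 2.47 CPM with dexamethasone and 15.7 ± 1.497 with both (SD, n = 3), and its interaction passed without the block (-1.22, SE 0.21, adjusted p = 0.0136).

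Of 13 other ERK-output genes 12 were tested. With dexamethasone 8 fell (4.9% of all genes) and 1 rose (5.54%), with a median of -1.502 against 0.0035 over all genes: among those that fell were the growth factor genes LIF (-2.70, SE 0.38) and HBEGF (-2.36, SE 0.45) and the AP-1 gene FOSL1 (-1.86, SE 0.26), and AREG, an EGF receptor ligand, rose (2.16, SE 0.16). With TGF-β1 2 rose, HBEGF (2.06, SE 0.34) and LIF (1.69, SE 0.30), and 5 fell, led by EREG, another EGF receptor ligand (-3.01, SE 0.27), and the ERK phosphatase genes DUSP5 (-2.09, SE 0.25) and DUSP4 (-1.41, SE 0.20). In cells given TGF-β1, dexamethasone lowered 4 of the 12 and raised AREG (1.40, SE 0.18), where 8.11% of all genes were called. In cells given dexamethasone, TGF-β1 raised 2 (HBEGF and LIF) and lowered 4, where 32.3% were called.

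The ETS and capicua repressors, which oppose ETV4 and ETV5, rose with TGF-β1 and fell with dexamethasone where they passed the test. With TGF-β1 4 of 5 rose (16.2% of all genes) and 1 was not past the test, and with the block all 5 were called, against 50% of all genes; they were led by ATXN1, a partner of capicua (1.26, SE 0.08), and ERF, an ETS repressor that ERK exports from the nucleus (0.74, SE 0.09). With dexamethasone 3 fell, ERF (-0.74, SE 0.10), ATXN1 (-0.48, SE 0.09) and CIC, which encodes capicua (-0.31, SE 0.07). ERF was 161 ± 11.7 CPM in control, 268 ± 24.5 with TGF-β1, 96.2 ± 7.87 with dexamethasone and 162 ± 12.8 with both (SD, n = 3).

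Among 4 relatives of IER3 and PHLDA1, dexamethasone lowered IER2 (-1.27, SE 0.11), PHLDA3 (-1.11, SE 0.10) and IER5 (-0.57, SE 0.15), and TGF-β1 raised IER2 (0.52, SE 0.11) and lowered IER5 (-1.25, SE 0.15), PHLDA2 (-0.45, SE 0.15) and PHLDA3 (-0.31, SE 0.09). PHLDA3, a p53-induced inhibitor of AKT, was the only gene of this list with an interaction without the block (1.01, SE 0.13, adjusted p = 0.00327). Of 7 RAS genes and inactivators, dexamethasone lowered 1, the RAS-inactivating gene RASA1 (-0.71, SE 0.11), and TGF-β1 raised RASA1 (0.57, SE 0.11) and NRAS (0.45, SE 0.08) and lowered RASA2 (-0.60, SE 0.15). Of 7 receptor adaptor genes dexamethasone raised SOS2, a RAS exchange factor (0.83, SE 0.15), and SHC1 (0.36, SE 0.07), and TGF-β1 raised FRS2, the adaptor of FGF receptors (0.54, SE 0.15), and SHC1 (0.30, SE 0.07). Of 6 genes for partners of Sprouty proteins, dexamethasone changed none past the test (2 with the block), and TGF-β1 raised SIAH2, a ubiquitin ligase that degrades Sprouty2 (0.70, SE 0.11), and TESK1 (0.35, SE 0.13) and lowered MKNK1 (-0.34, SE 0.11). With the replicate block the calls with TGF-β1 went from 2 to 4 in the RAF-MEK-ERK list and from 2 to 4 among the adaptors, while those over all genes went from 32.8% to 50%. Those with dexamethasone went from 1 to 3 among RAS genes and inactivators, and from 10.4% to 22.2% over all genes. In cells given TGF-β1 the dexamethasone calls among other ERK-output genes went from 5 to 9, and from 8.11% to 17.5% over all genes.

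**Figure D4:**
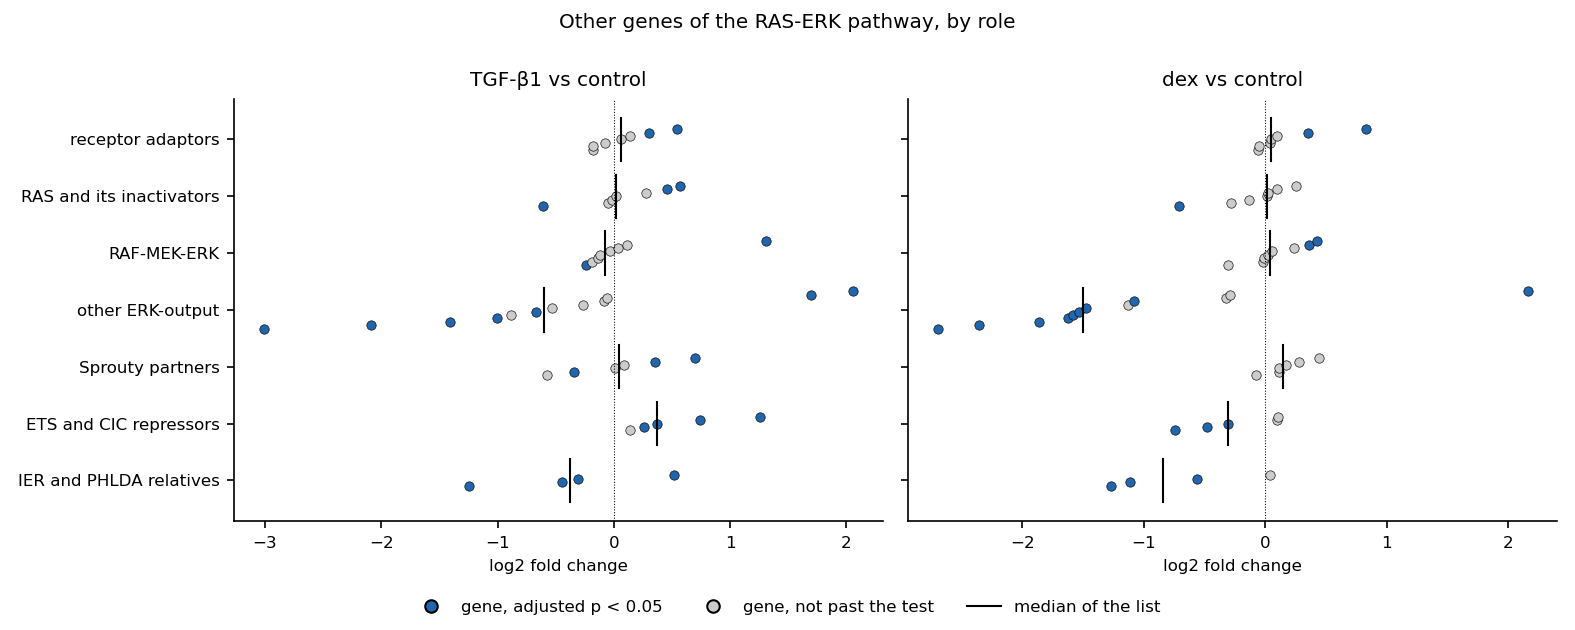
Log2 fold change (x axis) of the tested genes of 7 pathway lists (y axis) for TGF-β1 against control and dexamethasone against control; blue points passed the edgeR test, grey points did not, and the black line is the list's median. With dexamethasone the other ERK-output genes lie mostly to the left (median -1.502) while the RAF-MEK-ERK list centres on 0.04.

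Levels of different genes were compared per kilobase of merged GENCODE exons. In control IER3 (47.1 ± 11.4 CPM per kb, SD, n = 3) and PHLDA1 (35.0 ± 9.06) led and overlapped each other, followed by SPRED2 (6.66 ± 0.517), SPRED1 (4.42 ± 0.194) and SPRY2 (4.24 ± 1.05), of which the last 2 overlapped. SPRY1 (2.17 ± 0.254), SPRY4 (1.96 ± 0.864) and ETV5 (1.72 ± 0.548) followed with overlapping values, and ETV4 (0.707 ± 0.29) and SPRED3 (0.329 ± 0.0816) were last. With dexamethasone the order became PHLDA1 (26.3 ± 6.38), SPRY2 (16.5 ± 2.26) and IER3 (4.25 ± 0.728), the last overlapping SPRED2 (3.98 ± 0.166). With TGF-β1 IER3 stood at 129 ± 34.2 and PHLDA1 at 12.1 ± 2.86, and SPRY1 became the lowest of the 10 (0.195 ± 0.112). With both agents IER3 (19.8 ± 4.12) and PHLDA1 (17.8 ± 2.42) were again first and overlapped.

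The genes whose log2 CPM followed each member most closely over the 12 libraries were taken among the 12433 tested genes whose mean log2 CPM reached 1. They were TPST2 (Pearson r = 0.988) and TGFB2 (0.986) for IER3, IRX3 (0.984) and TXNIP (0.970) for SPRY2, FAM83A (0.970) and SLC12A9 (0.967) for PHLDA1, and LRCH4 (0.959) and DBP (0.948) for SPRY1. For SPRED1 they were ITPRIPL2 (0.952) and HIVEP2 (0.943), for ETV5 TMEM185B (0.948) and GNB1 (0.941), for SPRED2 PDP1 (0.947) and SMIM15 (0.942), and for SPRY4 VPS37B (0.937) and TEAD3 (0.932). The closest genes to ETV4 (AMOTL1, 0.894, and ICAM1, 0.887) and to SPRED3 (TFB2M, 0.893, and ZNF513, 0.887) were less close. These are descriptions: the libraries fall into 4 treatment groups and share their numbers, and r rests on the differences between groups as well as on the spread within them.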

How the data were processed

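RNA was measured in 12 libraries of BEAS-2B cells, 4 groups of 3. Per the labels' protocols, 500 ng of total RNA with an RIN above 8 was used with polyA selection. The deposited values are raw counts of reads per gene, made by the authors with featureCounts on hg38 per the submitters' processing notes; its version, aligner, annotation and strand setting were not given in the sources used here. Of 18 columns, 12 matched labels and 6 did not and were not used. Of 28395 Entrez identifiers, 27745 matched RefSeq symbols (GRCh38.p14), with 99.9% of counts. Exon lengths and overlaps came from GENCODE 29.

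Genes were kept by filterByExpr (minimum count 10), which left 13469. All 12 libraries were fitted in 1 edgeR 4.0.16 model (TMM, robust quasi-likelihood; R 4.3.3), with Benjamini-Hochberg adjusted p under 0.05 as the threshold. SEs were derived from the fold change and F. P-values set the difference between groups against the spread between these libraries, which without the block includes differences between replicate numbers. Replicate pairs differed beyond sampling noise, with chi-square 5.45 to 16.4 times its degrees of freedom. Deviations from group means (log2 CPM, prior count 2) correlated above 0.1 in 18 of 18 same-numbered pairs, so the numbers were taken to pair the libraries; edgeR's common biological variation fell from 0.122 to 0.0577 once the block was added. The test without the block was checked on simulated data that held no replicate-number effect, and the blocked fit was not checked in this way.

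Alternatives were DESeq2 1.42.0 and its size factors, library size alone, no filter, only the groups compared, the block, and libraries left out; the block with a number left out or with library size alone was added after seeing the data. The members and lists were chosen with earlier results of these data known. The text names the 10 members, up to 3 genes per list, direction and comparison with the largest change past the test, the 2 genes closest to each member, and treatment checks; some of these genes are not reported here. Figures used Python 3.11.15 and matplotlib 3.10.9.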

Additional observations from a re-analysis of the deposited data

Results flagged for a closer look

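The dexamethasone effect differed between cells with and without TGF-β1 for 5 of the 10 genes by the interaction in the fit with the replicate block. That fit called 4.78% of all genes. Without the block none of the 10 passed, where 0.884% of all genes were called. The difference (with TGF-β1 minus without) was 2.69 for SPRY1, -1.21 for SPRY2, 1.18 for SPRY4, 0.77 for IER3 and 1.00 for PHLDA1. With replicate 2 of every group left out from the blocked fit all 5 passed again, with SPRED1 added. With replicate 1 left out only SPRY2 (-1.30, adjusted p = 0.0153) and PHLDA1 (1.03, adjusted p = 0.00322) passed, and with replicate 3 left out only PHLDA1 (0.90, adjusted p = 5.52e-05). The blocked fit without replicate 2 called 21 of the 60 effects examined that had no call in the fit without the block. The blocked fit of all libraries added 15 in the same way. The share of all genes called was not computed for fits with a number left out. SPRY1 in the treated groups rests on 2 to 30 reads per library. With TGF-β1 alone it was already at 0.350 to 1.24 CPM, where a further fall would be hard to measure. Whether its response to dexamethasone differed apart from that low level was not tested.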

How the results depend on the processing

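Scaling by DESeq2 size factors kept the direction and the call of all 60 effects examined. Scaling by library size alone moved the median of all genes to -0.22 for TGF-β1 against control, -0.23 for both against dexamethasone and -0.27 for both against control, and left 22.4%, 22.9% and 21.0% of calls upward, against 49.5%, 49.3% and 50.6% with TMM; members' directions are relative to that shift. It turned ETV4 in both against TGF-β1 (-0.012), SPRED1 and SPRY4 against control with TGF-β1 (-0.046 and -0.026) and with both (-0.15 and -0.15), SPRY2 in both against control (-0.080) and SPRED2 in both against dexamethasone (-0.033), none of them called; with the replicate block as well these were -0.041 for ETV4, -0.032 for SPRED1 with TGF-β1, -0.13 and -0.10 for SPRED1 and SPRY4 with both, -0.059 for SPRY2 and -0.018 for SPRED2.

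The replicate block gave 5 calls for TGF-β1 against control, 7 for dexamethasone against control, 4 for both against TGF-β1 and 5 for the interaction; the members' calls it changed stand in the results, and it ended none of theirs. Adding library size alone to the block gave 6, 7, 4 and 5. With replicate 2 of every group left out the blocked fit gave 8, 7, 4 and 6, and 8 for both against dexamethasone. The blocked fit gave 4 for both against TGF-β1 without replicate 3, and 2 and 1 for the interaction without replicates 1 and 3. The share of all genes called was not computed for fits with libraries left out or for the block with library size alone. Nor was it computed without the low-count filter, with DESeq2's test or with only the groups compared. Without the low-count filter, both against dexamethasone had 3 calls and the interaction 1; DESeq2 also called 1 interaction, and fitting only the groups compared left 1 call in both against TGF-β1. With libraries left out in turn and no block, calls ranged from 3 to 4 in TGF-β1 against control, 3 to 6 in dexamethasone against control, 1 to 4 in both against TGF-β1, 2 to 6 in both against dexamethasone, 2 to 4 in both against control and 0 to 2 in the interaction.

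Effects that were not called changed sign with libraries left out. In TGF-β1 against control they ranged as ETV4 -0.59 to 0.023, SPRED2 -0.18 to 0.099, SPRY4 -0.091 to 0.55. In both against TGF-β1 they ranged as ETV4 -0.13 to 0.32, ETV5 -0.30 to 0.11, SPRED1 -0.17 to 0.11, SPRED3 -0.56 to 0.0998, SPRY1 -0.34 to 0.87, SPRY4 -0.36 to 0.13. In both against control they ranged as ETV4 -0.44 to 0.028, SPRED1 -0.00445 to 0.22, SPRY4 -0.075 to 0.49. In both against dexamethasone they ranged as ETV4 -0.11 to 0.45. In dexamethasone against control they ranged as ETV5 -0.57 to 0.048. In the interaction they ranged as ETV5 -0.10 to 0.52, SPRED3 -0.068 to 0.66. With the block the reversed values were without replicate 1 ETV4 -0.10 (both against TGF-β1), ETV4 0.030 (TGF-β1 against control), SPRED3 0.093 (both against TGF-β1), SPRY1 -0.28 (both against TGF-β1); without replicate 2 SPRED2 0.068 (TGF-β1 against control), SPRED3 -0.016 (the interaction); without replicate 3 ETV4 -0.13 (both against dexamethasone), ETV5 0.098 (both against TGF-β1), SPRY4 -0.037 (both against control), SPRY4 0.053 (both against TGF-β1), SPRY4 -0.090 (TGF-β1 against control). The cause of these changes was not tested. Depth limits SPRY1 under treatment, SPRED3 and ETV4, and 3 libraries per group limit every test.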
